A study of Homo sapiens with 6 samples.

Results

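Keratins are the intermediate filament proteins of epithelial cells. Each filament is built from pairs that hold 1 type I (acidic) and 1 type II (basic to neutral) chain. KRT8 (type II) and KRT18 (type I) form the basic pair of simple epithelia, and pancreatic duct cells add KRT7 (type II) and KRT19 (type I), which are used to recognise ductal cells and ductal adenocarcinoma. The 10 keratins described here were chosen by name, with earlier results of these data known. They are 5 type I chains (KRT10, KRT17, KRT18, KRT19 and KRT20) and 5 type II chains (KRT5, KRT7, KRT8, KRT80 and KRT81), and all 10 had a row among the 30735 genes measured.

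RNA-seq was performed on PANC-1 cells, an established human cell line from a pancreatic ductal carcinoma. The comparison asked what follows at the mRNA level when CD73, the ecto-5'-nucleotidase encoded by NT5E, is knocked down. All 6 samples were transfected with Lipofectamine in serum-free medium, 3 with CD73 siRNA and 3 with a negative control, and numbered 1 to 3 in each group. The labels give neither the time of harvest nor the siRNA sequences, and they do not say whether the numbers mark different siRNAs or repeats of the same transfection. Being a single cell line, the model stands for 1 tumour, and p-values measure the spread between these 6 samples.

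Levels are given as RPKM, reads scaled to exon length in kilobases and to the library total. Library totals recovered from the values ranged from 15009113 to 16836207 reads. NT5E was lower in every CD73 siRNA sample (3.36, 6.85 and 8.22 RPKM for numbers 1, 2 and 3) than in any control (13.96, 13.87 and 17.14 RPKM). GAPDH was 561 ± 29.6 RPKM (SD, n = 3) with CD73 siRNA and 566 ± 26.5 RPKM (SD, n = 3) in controls. Differences were tested with limma on log2(RPKM + 1) for the 12527 genes that reached 1 RPKM in 3 or more of the samples. On this scale the change of a low gene is understated. Of these genes, 392 (3.13%) had an unadjusted p below 0.01, and 1 gene had an adjusted p below 0.05.

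Members of the family resemble each other in sequence, which matters when short reads are assigned to genes. The coding stretch of 27 bases at the end of the central rod, where filament chains contact each other, is shown for the 4 keratins that define simple and ductal epithelium, from the transcripts of GENCODE release 29 (GRCh38). The fourth codon is in capitals. It was AAG, a lysine codon, in both type II chains, CGC (arginine) in KRT18 and AGC (serine) in KRT19, while the codons around it were much alike.
KRT8: acctacaggAAGctgctggagggcgag
KRT7: acctaccgcAAGctgctggagggcgag
KRT18: acctaccgcCGCctgctggaagatggc
KRT19: acctaccgcAGCctgctcgagggacag

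In control PANC-1 cells the simple epithelial pair made up nearly all of the keratin mRNA. KRT8 was measured at 158, 72.0 and 83.6 RPKM in controls 1, 2 and 3, with a mean of 104.5 ± 46.7 RPKM (SD, n = 3), which placed it at rank 267 of 30735 genes. KRT18 was measured at 87.0, 56.8 and 67.4 RPKM in the same samples (70.4 ± 15.3, SD, n = 3), at rank 475. Control 1 was the highest for both. Together the pair accounted for 91.6% to 94.7% of the summed RPKM of the 10 keratins in controls.

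The next level was an order of magnitude lower and held 3 keratins, each of whose control ranges overlapped that of its neighbour in the order, while KRT19 lay above KRT80 without overlap. KRT19, the smallest keratin and a marker of duct cells, was at 4.72 ± 0.80 RPKM (SD, n = 3). KRT10, a type I chain best known from the upper layers of the epidermis, was at 3.98 ± 0.44 RPKM (SD, n = 3). KRT80, a widely distributed type II chain, was at 3.02 ± 1.08 RPKM (SD, n = 3). The ranges of KRT18 and KRT19 did not overlap, nor did those of KRT80 and KRT20.

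The remaining 5 keratins averaged under 1 RPKM in controls, and each range overlapped that of its neighbour in the order. Further apart in that order, KRT17 lay above KRT7, and KRT20, KRT17 and KRT81 above KRT5, without overlap. For KRT20 and KRT81 this rests on 2 reads in their lowest control, against 3 reads in the highest control of KRT5. KRT20, a keratin of intestinal and urothelial epithelium, averaged 0.61 RPKM. KRT17, a keratin of basal and injured epithelium, averaged 0.23 RPKM, and KRT81, a hair keratin, 0.20 RPKM. KRT7 averaged 0.068 RPKM, from 2 to 7 reads per control sample, and KRT5, the type II chain of basal cells, 0.020 RPKM, from 0 to 3 reads. The ductal keratin KRT7 was thus nearly absent from these cells, at rank 21873 of 30735 genes.

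**Figure D1:**
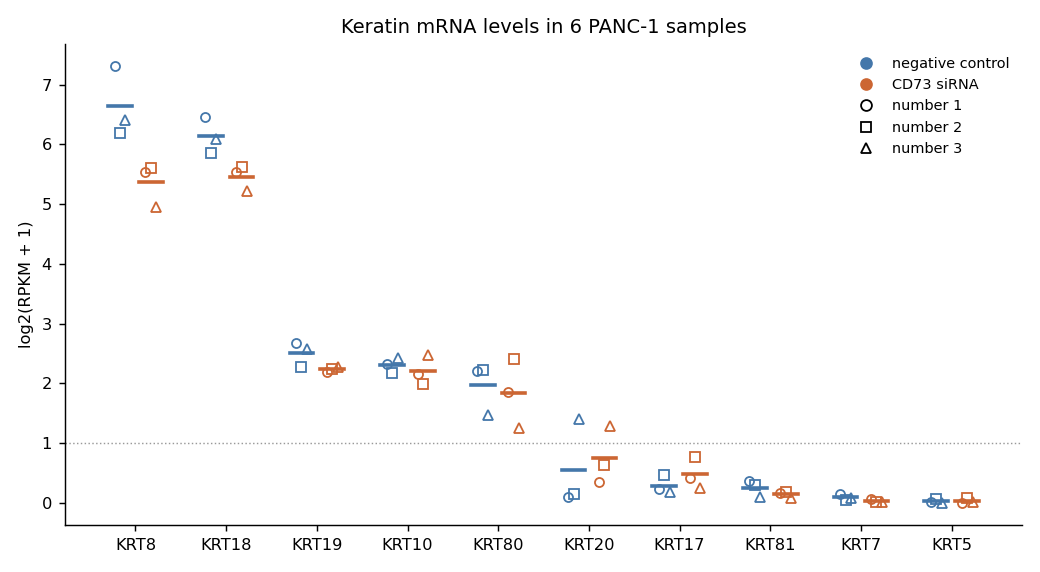
Level of each keratin as log2(RPKM + 1) in the 3 negative controls (blue) and the 3 CD73 siRNA samples (orange) of PANC-1 cells. Symbols give the replicate number, short lines the group means, and the dotted line 1 RPKM. KRT8 and KRT18 stand far above the other 8 keratins, and their CD73 siRNA samples lie below all of their controls.

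Other defining markers of duct cells were uneven. SOX9, a transcription factor of duct cells, was high at 47.7 ± 3.55 RPKM (SD, n = 3) in controls. CFTR, the chloride channel of duct cells, reached at most 0.028 RPKM in any sample. The epithelial adhesion genes EPCAM and CDH1 averaged 1.21 ± 0.58 and 1.18 ± 0.67 RPKM in controls (SD, n = 3). For both genes, number 3 was the lowest in either group. VIM, the intermediate filament protein of mesenchymal cells, averaged 240.4 RPKM in controls. Of 12 ductal and epithelial markers with a row, 6 passed the level filter, and 0 of these were past an unadjusted limma p of 0.01. SOX9 had the smallest p of them (log2 difference 0.20, SE 0.09, adjusted p = 0.438), followed by ESRP2, a splicing factor of epithelial cells (0.14, SE 0.11, adjusted p = 0.629). The summed RPKM of the list was 59.9 to 69.9 in controls and 70.6 to 73.9 with CD73 siRNA. SOX9 alone made up most of this sum, at 45.4 to 51.8 RPKM in controls and 53.6 to 55.5 RPKM with CD73 siRNA. Whether the sum bears on the keratin results was not tested.

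Levels between keratins depend on the exon length that they are divided by. The deposited values fit the merged exons of all transcripts of a gene, which are 6881 bases for KRT8 against 2126 bases for its principal transcript (3.24 times as long), and 3218 against 1562 bases for KRT18 (2.06 times). Per length of the principal transcript, KRT8 was at 338 ± 151 and KRT18 at 145 ± 31.6 RPKM (SD, n = 3), and their control ranges no longer overlapped. KRT19 was then at 7.93 and lay above KRT10 at 4.02 without overlap. The order of the 10 means was the same on both scales. Per principal transcript, however, KRT20 and KRT81 (lowest controls 0.072 and 0.069 RPKM) overlapped KRT5 (highest control 0.076 RPKM).

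With CD73 siRNA, the mRNAs of KRT8 and KRT18 were lower than in every control, and no keratin was higher beyond the threshold. In bulk RNA, fewer cells with a transcript and less of it per cell cannot be told apart. Of the 5 keratins that passed the level filter, 2 had an unadjusted limma p below 0.01 with a lower level, where 1.31% of all genes tested did so, and 0 had an adjusted p below 0.05, as against 0.00798% of all genes. The same 2 had groups that did not overlap, where 8.07% of all genes were lower without overlap. With a replicate block in the fit, the count was again 2, against 3.30% of all genes lower at that threshold. The median log2 difference was −0.26 over the 5 keratins and 0.01 over all genes tested. Since the members were chosen with earlier results of these data known, the shares over all genes give scale and are not a test of the set.

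KRT8 lies on the reverse strand of chromosome 12 (chr12:52897187-52949954, GRCh38, ENSG00000170421). In CD73 siRNA samples 1, 2 and 3 it was measured at 45.4, 47.5 and 30.0 RPKM, against 158, 72.0 and 83.6 RPKM in the controls of the same numbers. The highest CD73 siRNA sample was below the lowest control, and the group mean was 41.0 ± 9.57 RPKM (SD, n = 3), or 39.2% of the control mean. The log2 difference was −1.27 (SE 0.30, limma p = 0.00261, adjusted p = 0.303), and the exact permutation test gave p = 0.1, the smallest that 3 against 3 samples allow. By size this was decrease number 8 of 12527 genes. The decrease in NT5E itself was number 10, with a log2 difference of −1.23 (SE 0.26, limma adjusted p = 0.303).

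The size of the KRT8 difference varied with the replicate number. It was −1.78 within number 1, −0.59 within number 2 and −1.45 within number 3 on the log2 scale. Blocking by number lowered the standard error to 0.21 (limma adjusted p = 0.113). Between 3477 and 17434 reads stood behind each KRT8 value, so counting error was small beside the spread between samples. KRT8 kept an unadjusted p below 0.01 when any sample was left out, with log2 differences between −0.93 (without control 1) and −1.49 (without control 2).

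KRT18, the type I partner of KRT8, adjoins it on the forward strand (chr12:52948871-52952901, ENSG00000111057). It was measured at 45.7, 48.1 and 36.3 RPKM with CD73 siRNA, against 87.0, 56.8 and 67.4 RPKM in the controls. Again the groups did not overlap, and the CD73 siRNA mean of 43.4 ± 6.25 RPKM (SD, n = 3) was 61.6% of the control mean. The log2 difference was −0.68 (SE 0.17, limma adjusted p = 0.303, exact permutation p = 0.1), with an unadjusted limma p of 0.00448. It was −0.92, −0.24 and −0.88 on the log2 scale within numbers 1, 2 and 3. As for KRT8, number 2 showed the smallest difference. This call was less firm than that of KRT8, since KRT18 had a limma p of 0.0103 to 0.0167 without CD73 siRNA 1, CD73 siRNA 3, control 1 or control 3 (adjusted p = 0.303 with all 6 samples).

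**Figure D2:**
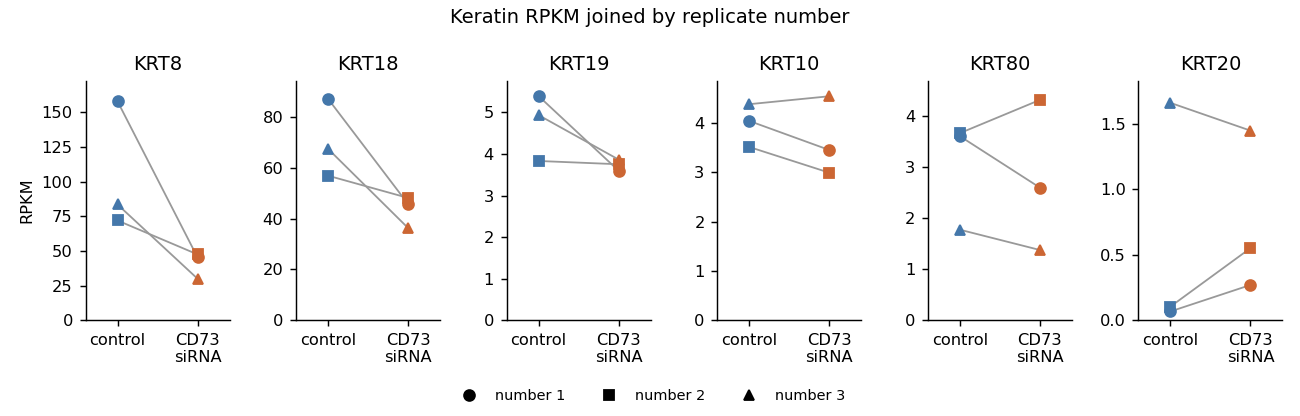
RPKM of 6 keratins in negative control and CD73 siRNA samples of PANC-1 cells, with lines joining samples of the same replicate number and every vertical axis starting at 0. KRT8 and KRT18 are lower with CD73 siRNA within all 3 numbers, and number 3 is the highest of both groups for KRT20 and the lowest of both groups for KRT80.

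KRT19 (chr17:41523617-41528308, reverse strand, ENSG00000171345) was measured at 3.60, 3.75 and 3.87 RPKM with CD73 siRNA, against 5.39, 3.83 and 4.93 RPKM in controls. The groups overlapped, since CD73 siRNA 3 lay just above control 2. The log2 difference was −0.26 (SE 0.13, limma adjusted p = 0.458) and did not pass the threshold, although all 3 numbers were lower with CD73 siRNA, by values from −0.48 to −0.02. Between 135 and 202 reads lay behind each value.

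KRT10 and KRT80 differed by less than the spread between replicates. KRT10 (chr17:40818117-40822595, reverse strand) was measured at 3.45, 2.99 and 4.54 RPKM with CD73 siRNA and at 4.04, 3.51 and 4.38 RPKM in controls (log2 difference −0.10, SE 0.15, limma adjusted p = 0.810). KRT80 (chr12:52168996-52192000, reverse strand) was measured at 2.60, 4.32 and 1.38 RPKM with CD73 siRNA and at 3.61, 3.67 and 1.78 RPKM in controls (−0.13, SE 0.31, limma adjusted p = 0.896). For KRT80 the spread across numbers exceeded the difference between the groups, with number 3 the lowest in both.

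The other 5 keratins did not pass the level filter and are given as levels, and none of them had groups without overlap. KRT20 (chr17:40875941-40885227) was measured at 0.27, 0.55 and 1.45 RPKM with CD73 siRNA and at 0.068, 0.10 and 1.66 RPKM in controls, from 2 to 46 reads. Number 3 of either group was above all samples of numbers 1 and 2. KRT17 (chr17:41619441-41624842) was measured at 0.34, 0.70 and 0.19 RPKM with CD73 siRNA and at 0.17, 0.38 and 0.13 RPKM in controls, from 6 to 35 reads. It was the keratin with a higher value within all 3 numbers, but its groups overlapped, and the exact permutation test gave p = 0.4.

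KRT7 (chr12:52232520-52252186) was measured at 0.046, 0.016 and 0.015 RPKM with CD73 siRNA and at 0.11, 0.031 and 0.065 RPKM in controls. These values stood on 1 to 3 reads and on 2 to 7 reads. KRT7 was lower within all 3 numbers, but its groups overlapped (exact permutation p = 0.2), and a difference was not detectable at this depth. KRT81 (chr12:52285913-52291534) was measured at 0.13, 0.13 and 0.062 RPKM with CD73 siRNA and at 0.29, 0.23 and 0.069 RPKM in controls, from 2 to 9 reads. It too was lower within all 3 numbers, with 2 reads in number 3 of either group and overlapping groups (exact permutation p = 0.3). KRT5 (chr12:52514575-52520687) reached at most 0.059 RPKM, from 4 reads. Its 0 reads in CD73 siRNA 1 and control 3 allow levels of up to 0.043 and 0.047 RPKM, the worth of 3 reads, with counting error alone considered.

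The log2 difference of KRT8 was larger than that of KRT18 within each of the 3 numbers, and the balance between the chains differed accordingly. The ratio of KRT18 to KRT8 was 0.55, 0.79 and 0.81 in controls 1, 2 and 3, and 1.01, 1.01 and 1.21 with CD73 siRNA. The groups did not overlap, and the log2 difference was 0.60 (exact permutation p = 0.1, the smallest possible). Per principal transcript length the ratios were 0.35, 0.50 and 0.51 in controls and 0.64, 0.64 and 0.77 with CD73 siRNA. KRT8 was thus the more abundant chain in all 6 samples on that scale, and in the 3 controls alone on the deposited scale. The shift itself is the same on either scale by construction.

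Summed over the 10 keratins, the level was 258.7, 140.7 and 164 RPKM in the controls and 101.5, 108.2 and 77.8 RPKM with CD73 siRNA. The means were 188 ± 62.5 and 95.8 ± 16.0 RPKM (SD, n = 3), and the groups did not overlap (log2 difference −0.93, exact permutation p = 0.1). The type I chains made up 37.4%, 46.0% and 47.9% of the sum in controls and 52.5%, 51.9% and 59.5% with CD73 siRNA. The mean share was 10.9 percentage points higher with CD73 siRNA (exact permutation p = 0.1). Both sums rest on the simple epithelial pair. Without KRT8 and KRT18, an alternative chosen after seeing the data, the type I share differed by 0.745 percentage points and the summed level by −0.16 on the log2 scale, and the groups overlapped for both.

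**Figure D3:**
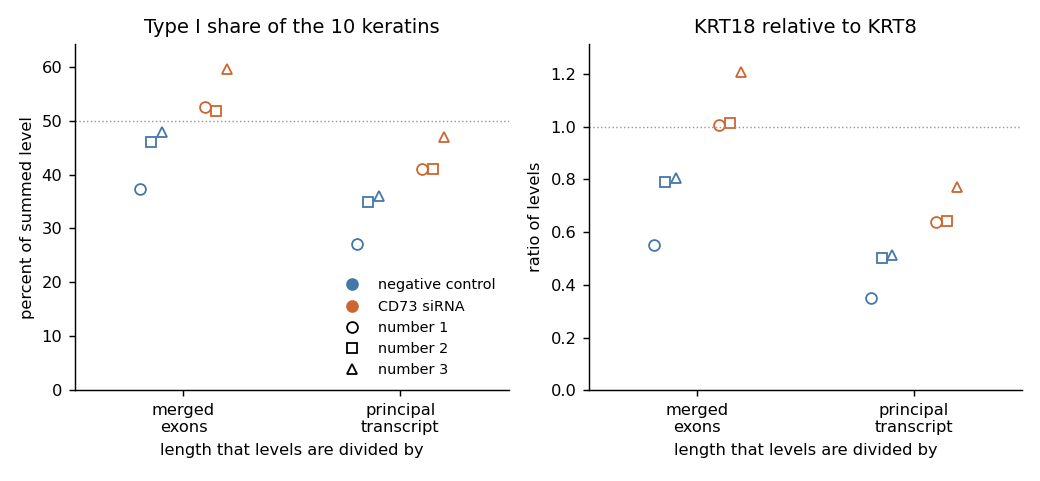
Type I share of the summed level of the 10 keratins in percent (left) and ratio of KRT18 to KRT8 (right) in each PANC-1 sample, with levels divided by merged exon length or by principal transcript length. Negative controls (blue) lie below all CD73 siRNA samples (orange) on both scales, and the dotted lines at 50% and at a ratio of 1 are crossed on the merged exon scale and not on the other.

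KRT8 and KRT18 overlap head to head on opposite strands and share 525 exonic bases, in blocks of 375 bases (chr12:52949216-52949590) and 150 bases (chr12:52949805-52949954). Whether counting used strand is not given in the sources used here, so reads in these blocks cannot be assigned to a gene with certainty. Both genes also have many processed copies elsewhere in the genome. Of all 50-base words in the principal transcript, 36.9% for KRT8 and 47.6% for KRT18 occurred in the transcripts of at least 1 other gene on either strand. These shares include the overlap of the 2 genes: of 720 such words of KRT18, 326 occurred in KRT8, the most for any gene. For KRT8 the gene sharing most was the pseudogene KRT8P3, with 395 of 767 words. The share was 44.6% for KRT81, mostly with the hair keratin KRT86, and 10.8% for KRT7, mostly with KRT7-AS on the opposite strand. It was 16.0% for KRT17, 4.0% for KRT5, 1.8% for KRT19 and at most 0.4% for KRT10, KRT80 and KRT20. The levels of KRT8, KRT18 and KRT81 are therefore uncertain to the extent that such reads were dropped or placed at another gene.

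Among pseudogenes of KRT8, KRT18, KRT19 and KRT17, KRT8P12 had the most reads. It is a transcribed processed copy of KRT8 on chromosome 3 (chr3:160565447-160569248, forward strand, GRCh38). It was 90.5% identical to the KRT8 coding sequence over 1385 aligned bases. In stretches of 90 bases the median number of mismatches was 8, over 826 such windows.

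Levels at KRT8P12 were not lower where KRT8 was lower. It was measured at 7.54, 7.23 and 5.43 RPKM with CD73 siRNA and at 4.66, 5.98 and 3.78 RPKM in controls. Each CD73 siRNA sample was above the control of its number, but the groups overlapped, and the log2 difference was 0.42 (SE 0.17, limma adjusted p = 0.393, exact permutation p = 0.2). With a replicate block, the unadjusted limma p was 0.0044 (adjusted p = 0.116). All 20 KRT8 pseudogenes with a row summed to 163 to 232 reads per control sample and 232 to 291 reads per CD73 siRNA sample. That was 1.2% to 3.0% and 5.4% to 6.7% of the reads at KRT8 itself. In summed RPKM the KRT8 pseudogenes weigh more than in reads, with 9.69 RPKM in CD73 siRNA 1 beside 45.4 RPKM for KRT8. Adding the summed RPKM of the pseudogenes to KRT8 and to KRT18 left ratios of KRT18 to KRT8 of 0.53, 0.73 and 0.76 in controls. With CD73 siRNA these ratios were 0.86, 0.88 and 0.99. The ratio with pseudogene reads added in place of RPKM was not computed.

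**Figure D4:**
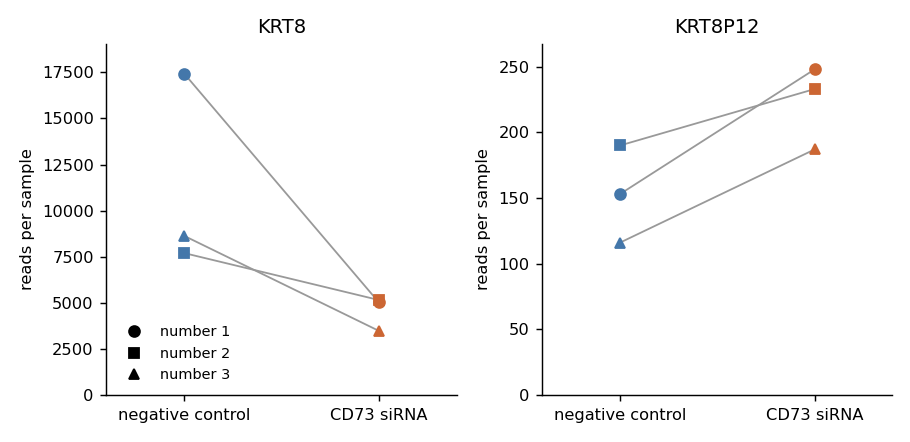
Reads per sample at KRT8 (left) and at its most abundant pseudogene KRT8P12 (right), recovered from RPKM, with lines joining samples of the same replicate number and both axes starting at 0. KRT8 runs from 7695 to 17434 reads in controls and from 3477 to 5149 with CD73 siRNA, while KRT8P12 holds 116 to 190 and 187 to 248 reads.

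Pseudogenes of KRT18 and KRT17 carried few reads, and only those of KRT8, KRT18, KRT19 and KRT17 were looked at. The 20 KRT18 pseudogenes with a row summed to 0.65% to 1.8% of the reads at KRT18, the highest being KRT18P5 at 0.23 RPKM in controls and 0.24 RPKM with CD73 siRNA. The 2 KRT17 pseudogenes with a row held at most 1 read per sample, and KRT19 had 0 pseudogenes with a row.

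No other keratin reached 1 RPKM in any sample. Of 24 other type I keratins 12 had a row, with a highest value of 0.46 RPKM, and of 21 other type II keratins 9 had a row, with a highest value of 0.13 RPKM. None of these 21 genes with a row could be tested.

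Among 15 other intermediate filament genes, 7 passed the level filter, 1 was past an unadjusted limma p of 0.01 and higher (1.82% of all genes tested were), and their median log2 difference was 0.32. The gene was NES, which encodes nestin, a filament protein of progenitor cells that assembles with vimentin. NES was measured at 44.0, 39.9 and 45.4 RPKM with CD73 siRNA and at 18.4, 31.9 and 29.9 RPKM in controls, without overlap. Its log2 difference was 0.70 (SE 0.19, limma adjusted p = 0.305). Its unadjusted limma p was 0.0216 without CD73 siRNA 1 and 0.0212 without CD73 siRNA 3 (adjusted p = 0.75 and 0.419). VIM was at 226 ± 40.3 RPKM with CD73 siRNA against 240.4 ± 26.4 RPKM in controls (SD, n = 3), with a log2 difference of −0.10 (SE 0.15, limma adjusted p = 0.821).

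Keratin filaments end at desmosomes and hemidesmosomes, where plakin proteins tie them to the membrane. Of 15 anchor and crosslinker genes, 11 passed the filter and 0 were past an unadjusted limma p of 0.01, with a median log2 difference of 0.05. With a replicate block, 2 were past it and higher, where 4.27% of all genes tested were. These were EVPL (envoplakin, log2 difference 0.39, limma adjusted p = 0.359, and 0.113 with the block) and PPL (periplakin, 0.44, limma adjusted p = 0.384, and 0.119 with the block), plakins that bind each other. Desmoplakin (DSP), the main keratin anchor of desmosomes, was at 13.9 ± 0.43 RPKM with CD73 siRNA and 11.9 ± 1.84 RPKM in controls (SD, n = 3), a log2 difference of 0.21 (SE 0.13, limma adjusted p = 0.517).

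Of 12 keratin chaperones, kinases and partners, all 12 passed the filter and 0 were past the threshold, with a median log2 difference of 0.03. DNAJB6, a co-chaperone that binds KRT18, had the smallest p (log2 difference −0.23, SE 0.10, limma adjusted p = 0.393). YWHAE, a 14-3-3 protein, followed with 0.28 (SE 0.13, limma adjusted p = 0.449).

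**Figure D5:**
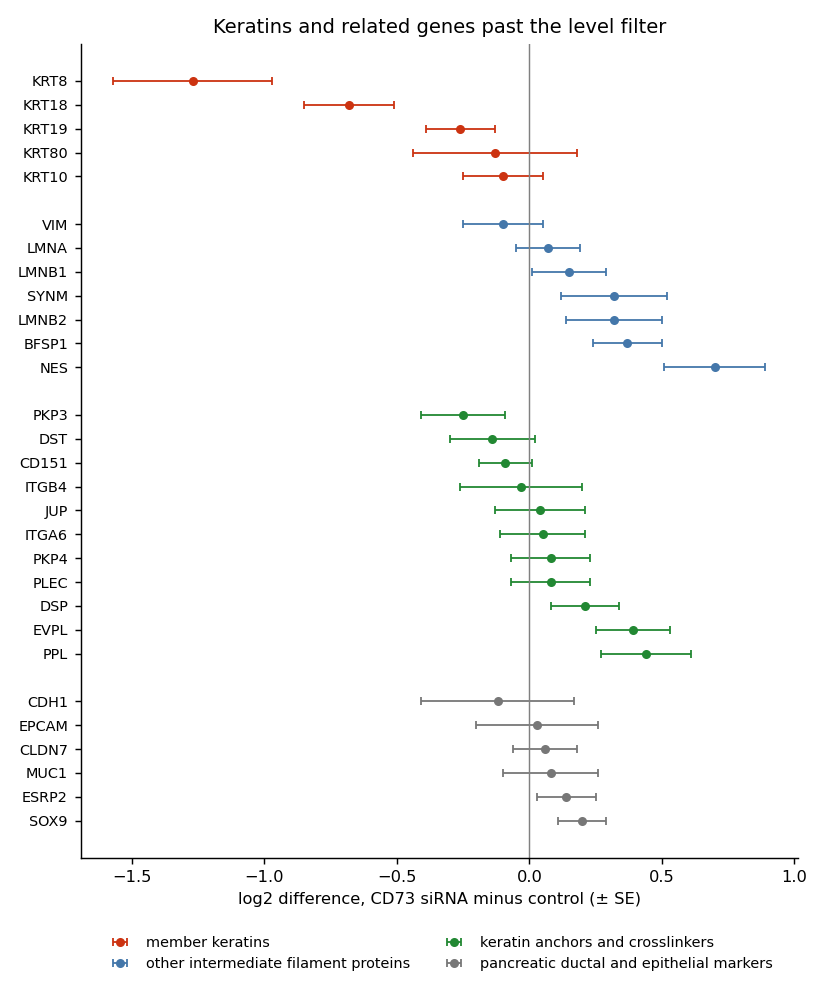
Log2 difference in RPKM + 1 between CD73 siRNA and negative control samples of PANC-1 cells, with its standard error (limma, 3 samples per group), for tested keratins and 3 lists of related genes. KRT8 at −1.27 and KRT18 at −0.68 lie lowest, NES at 0.70 highest, and the ductal and epithelial markers lie between −0.12 and 0.20.

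Markers of other cell types with a row were low apart from SYP, COL1A1 and COL3A1. Acinar markers reached 0.073 RPKM and leukocyte and endothelial markers 0.16 RPKM at most in any sample. Of the islet markers 1 passed the filter, SYP (3.63 against 3.58 RPKM in controls). Of the fibroblast markers 2 passed it, COL1A1 (11.4 against 15.8 RPKM) and COL3A1 (10.5 against 8.87 RPKM), and 0 of these 3 genes were past an unadjusted limma p of 0.01.

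Likeness to a keratin was the root mean square distance between centred log2 values over the 6 samples, a description in which all genes share the same libraries. The 3 nearest genes were taken from tested genes whose SD was at least 0.5 times that of the keratin. For KRT8 these were NFKBIA, an inhibitor of NF-κB (distance 0.179), ENSG00000267102, which has no symbol in the name table (0.224), and TNFAIP2, a gene induced by tumour necrosis factor (0.291). NFKBIA was measured at 19.2, 26.5 and 15.4 RPKM with CD73 siRNA and at 61.0, 34.8 and 37.2 RPKM in controls. KRT18 itself came at place 18 for KRT8, and KRT8 at place 981 for KRT18, at the same distance of 0.356. The SD over the samples was 0.82 for KRT8 and 0.44 for KRT18, and the distance was not scaled for it. For KRT18 the nearest were EFNA1, an ephrin ligand (0.063), HLA-B, a class I antigen-presenting molecule (0.084), and PPP2R1B, a phosphatase subunit (0.108). For KRT19 they were ERAP1, a peptidase that trims antigenic peptides (0.028), SIRPA, a membrane receptor that binds CD47 (0.034), and SRRM1, a splicing factor (0.041). KRT7 had an SD of 0.05 over the samples on this scale and was nearest to ATP5F1A, WDR11 and PIM2, whose levels hardly varied. With a pseudocount of 1, levels of 0.015 to 0.11 RPKM as for KRT7 can hardly differ on this scale. Its likeness to these genes therefore does not show a stable KRT7 level.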

How the data were processed

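Each sample's file lists 30735 Ensembl genes. The authors divided reads by exon length and library total before they deposited the values, which is RPKM as read from the values themselves, since the unit is not stated: value times merged exon length (GENCODE release 29) gave whole reads, within 0.02, for 95.1% to 95.2% of genes worth under 1000 reads. The submitters' processing notes name bcl2fastq, Bowtie2 2.2.3, HTSeq 0.6.0 and the build hg38; annotation and strand setting are not given in the sources used here. Symbols were matched for 30384 identifiers. Genes that reached 1 RPKM in 3 or more samples were fitted with limma 3.58.1 (R 4.3.3, eBayes with trend, pseudocount 1, no block) with Benjamini-Hochberg adjustment. An unadjusted p below 0.01, the study's threshold, set the calls, and single values had 2-sided exact permutation tests. The fit was tested on simulated data.

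Members and lists were chosen with earlier results of these data known. Named were all members, NT5E, GAPDH, list genes with p below 0.01 or otherwise the 2 smallest p, other keratins of at least 1 RPKM, the highest pseudogenes, and the 3 nearest profiles of KRT7, KRT8, KRT18 and KRT19; VIM, DSP, EPCAM, CDH1 and CFTR were added after their values were seen. Same-numbered samples deviated together over the tested genes, with correlations of 0.20, 0.48 and 0.55 for numbers 1, 2 and 3. The numbers were therefore taken to pair the samples in the replicate block, the paired tests and the differences within numbers, although the labels do not state a pairing. The main fit and the main exact permutation tests ignored this pairing. The mean was −0.21 between different numbers. Deviations were taken from each group's own mean, so this negative value follows largely from the positive ones and is not separate evidence. Alternatives were a replicate block, a pseudocount of 0.1, no filter, median centring, leaving out each sample, other keratin sums and, chosen after seeing the data, principal transcript length and sums without KRT8 and KRT18.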

Additional observations from a re-analysis of the deposited data

How the results depend on the processing

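With the replicate block, 948 genes had an unadjusted limma p below 0.01 in place of 392, and the keratin count was again 2. Besides the anchor genes and KRT8P12 given above, the block changed no call among the tested keratins and the listed genes. Leaving out 1 sample gave 110 to 791 genes, with 110 without CD73 siRNA 1, 181 without control 1, 254 without control 3 and 791 without control 2, and a keratin count of 1 to 2, with 1 without CD73 siRNA 1, CD73 siRNA 3, control 1 or control 3. KRT80 changed sign, with log2 differences from −0.42 to 0.16 (0.16 without CD73 siRNA 3). Those of KRT10 ran from −0.24 to 0.00, so that its difference vanished without CD73 siRNA 2. Without KRT8 and KRT18, chosen after seeing the data, the type I share differed by 0.745 percentage points and the summed level by −0.16. The other alternatives kept the direction of the summed level, the type I share and the KRT18 to KRT8 ratio, whose paired exact permutation p was 0.25, the smallest that 3 pairs allow. A pseudocount of 0.1 moved the log2 differences of keratins under the filter, to −0.41 for KRT7, −0.45 for KRT81, 0.58 for KRT17 and 0.87 for KRT20. NES had a limma p of 0.0138 without the filter (adjusted p = 0.661). Depth limits KRT5, KRT7 and KRT81, which had at most 9 reads per sample.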
